A study of Mus musculus with 8 samples.

Results

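The libraries compared here were those labelled Zmynd11 knockout (KO) after 2 h with interferon-beta (IFN-β) and those labelled KO at 0 h, 2 of each. They are 4 of the 8 RNA sequencing libraries of the study, chosen by their titles alone, and the comparison ran over all 12807 genes that passed a filter on low counts, of 23304 genes in the tables. All 8 libraries came from NIH3T3 cells, an immortalised mouse fibroblast line that the labels give as Swiss albino, grown in medium with 10% donor bovine serum. The study compared unedited cells (WT) with cells in which CRISPR was used against Zmynd11, each untreated (0 h) or given recombinant mouse IFN-β at 100 units/ml for 2 h. The labels name no clone, guide or batch, and the extraction text speaks of embryonic fibroblasts where the source field names NIH3T3. Nothing in them ties the 2 libraries of a group to separate cultures, so each p-value speaks of the spread among these libraries, which may be purely technical.

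Zmynd11 encodes a chromatin reader that binds histone H3.3 trimethylated at lysine 36 on the bodies of transcribed genes. IFN-β signals through the kinases Jak1 and Tyk2 to a transcription factor complex that holds Stat2 and Irf9 and binds the interferon-stimulated response element (ISRE) in front of antiviral genes. NIH3T3 cells are known as contact-inhibited, matrix-producing fibroblasts that divide quickly in serum and answer serum and growth factors with immediate early genes.

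Gene reads came to 19469059 and 15639529 in the libraries labelled KO 0 h (replicates 1 and 2) and to 20767671 and 13671013 in those labelled KO 2 h. Levels are given as CPM, reads scaled to the TMM-adjusted size of each library, always replicate 1 before replicate 2. The log2 change is the fitted log2 fold change of KO 2 h minus KO 0 h with its standard error (SE). A count of 0 allows up to 3 reads, worth 0.138 to 0.210 CPM over the 4 libraries, for counting error only. Library KO 0 h replicate 2 stood apart. It had reads for 17498 genes against 14847 to 15945 in the 7 others, and 3158 genes had reads there and none in KO 0 h replicate 1, with a median of 2 reads. Only 88 of those genes passed the filter.

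The targeted gene did not follow the genotype labels. Zmynd11 stood at 137 and 131 CPM in the libraries labelled KO 0 h, which held 2491 and 1967 reads of it. It stood at 3.31 and 4.69 CPM in those labelled KO 2 h, from 72 and 67 reads. The difference was -5.11 on the log2 scale (SE 0.13, edgeR adjusted p = 2.24e-18), and in the libraries labelled WT the values were 122 ± 1.62 CPM at 0 h and 3.40 ± 0.303 CPM at 2 h (mean ± SD, n = 2 each). The tested genes on either side of Zmynd11 on chromosome 13 did not share this drop. Dip2c was at 49.1 and 52.2 against 57.0 and 59.9 CPM (edgeR adjusted p = 0.0514), Larp4b at 138 and 139.7 against 129 and 143 CPM (0.746), and Mtr on the other side was lower by far less (log2 change -0.38, SE 0.10, edgeR adjusted p = 0.00183). Ifit1, an antiviral protein induced by interferon, was already at 196 and 229 CPM under the label KO 0 h and at 396 and 380.1 CPM under KO 2 h (log2 change 0.87, SE 0.11, edgeR adjusted p = 3.21e-06). Under the WT labels Ifit1 was at 1.30 ± 0.109 CPM at 0 h and 2.84 ± 1.57 CPM at 2 h (mean ± SD, n = 2 each). Isg15, a ubiquitin-like protein induced by interferon, was at 4.80 ± 0.505 and 3.56 ± 0.0742 CPM under the WT labels at 0 h and 2 h, and at 67.5 ± 4.28 and 72.5 ± 2.27 CPM under the KO labels (mean ± SD, n = 2 each). Zmynd11 thus differed by the time label and Isg15 mainly by the genotype label. Whether labels of genotype and time were exchanged between libraries was not tested. All directions below are therefore between labels, and genotype, treatment and time cannot be told apart from them.

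Of the 12807 genes, 7829 were called at an adjusted p below 0.05, which is 61.1% of those tested. Of these, 3838 (30.0%) were higher and 3991 (31.2%) lower under KO 2 h. Counts of list members below are to be read against these shares, and a list near them is not set apart by its counts. Changes of at least 2-fold made up 19.1% of genes tested, with 1365 higher (10.7%) and 1078 lower (8.42%). The groups did not overlap for 77.5% of all genes tested, so lack of overlap alone sets no gene apart. Replicates were close, with a biological coefficient of variation of 6.74%, and the median of all genes was -0.01 on the log2 scale. Scaling by library size alone moved that median by 0.15 and changed the split to 4834 higher and 3036 lower. Without KO 0 h replicate 2, the library that stood apart, 7379 genes were called, 3630 higher and 3749 lower. In that fit the counts of the main lists were 36 lower for DNA replication, 37 for mitosis, 23 for cholesterol synthesis and 18 for collagens, with lysosome and autophagy at 20 higher and 2 lower. Among the libraries labelled WT 61.2% of genes were called, and 6526 genes were called in both. The medians of the main lists under the WT labels were close to the KO values given below. They were -1.13 for DNA replication, -1.07 for mitosis, -1.71 for cholesterol synthesis, -1.29 for collagens and 0.78 for lysosome and autophagy. Not every list was so close: the median of the interferon-inducible GTPases was 2.81 under the WT labels and 0.70 under the KO labels.

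**Figure D1:**
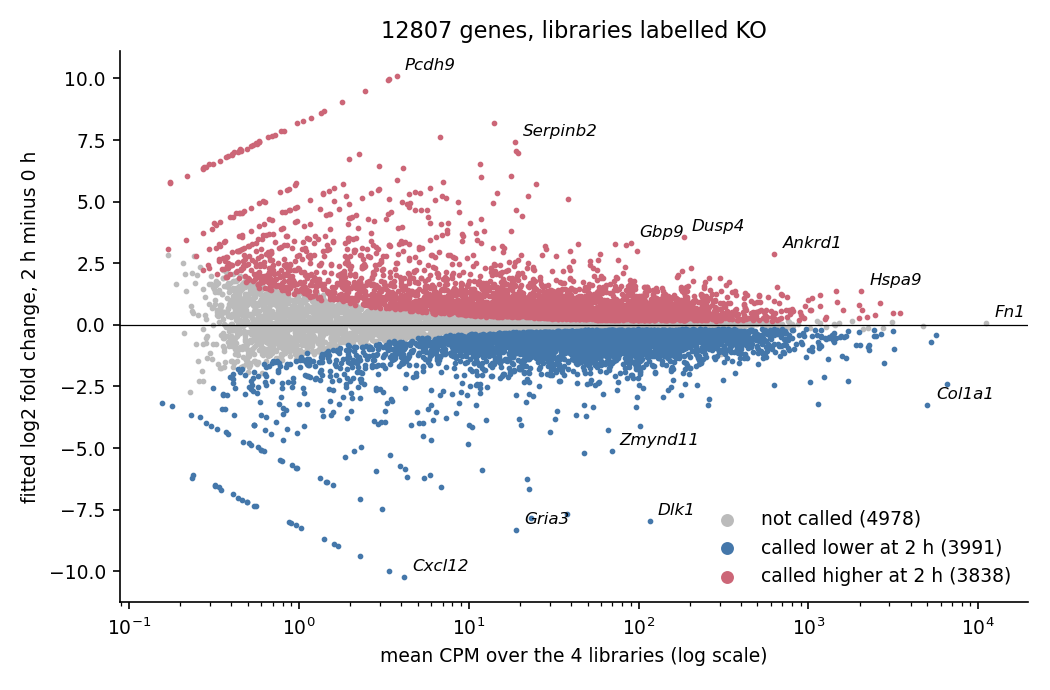
Fitted log2 fold change of KO 2 h minus KO 0 h (y) against the mean CPM of the 4 libraries (x, log scale), 1 point per gene. Of 12807 genes 3838 were called higher, 3991 lower and the rest, in grey, not called; the straight lines of points at the left are genes with no or few reads in a group, whose fitted values are no bound on the change.

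Genes of the extracellular matrix made up 6 of the 10 largest drops in CPM under KO 2 h. Of 19 collagen genes tested 18 were lower and 1 higher (median log2 fold change -1.09), 10 of them at least 2-fold. Col1a2, a chain of type I collagen, stood at 11129 and 10769 CPM under KO 0 h and at 2009 and 2132 CPM under KO 2 h (log2 change -2.40, SE 0.08, edgeR adjusted p = 1.04e-16). Col11a1, a fibril-nucleating collagen, stood at 91.1 and 91.5 against 7.12 and 6.86 CPM (-3.70, SE 0.11, edgeR adjusted p = 1.53e-17). Chains of type VI collagen, which forms beaded filaments around cells, were lower as well. Col6a1 was at 1765 and 1629.5 against 333 and 351 CPM and Col6a2 at 1126 and 990.0 against 186 and 205 CPM. In each of these genes both libraries labelled KO 0 h lay far above both labelled KO 2 h.

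Enzymes and chaperones that fold, crosslink and cut collagen followed, with 14 of 16 lower and none higher (median -0.71). Serpinh1, the collagen chaperone of the endoplasmic reticulum, was at 1479.9 and 1268 against 564 and 558 CPM (log2 change -1.29, SE 0.08, edgeR adjusted p = 3.7e-12). The prolyl hydroxylase subunit P4ha3 went from 100.1 and 85.3 to 14.2 and 20.7 CPM, and the crosslinking oxidase Lox from 2748 and 3047 to 1716 and 1538 CPM. Adamts2, which removes the amino-terminal propeptide of procollagen, had 3.48 and 3.27 CPM under KO 0 h and no read under KO 2 h, so it was at least 40.6-fold lower against 3 reads summed over the group. Pcolce, the enhancer of the carboxy-terminal cut, was at 551 and 498 against 551 and 589 CPM and did not pass the test (edgeR adjusted p = 0.191), but it was called higher without library KO 0 h replicate 1 (edgeR adjusted p = 0.0286) and with library size alone (edgeR adjusted p = 0.00373).

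Of 37 matrix glycoproteins and proteoglycans 26 were lower and 10 higher (median -0.64). Lama4, the α4 chain of laminin, was at 100.1 and 95.3 against 9.97 and 9.39 CPM (log2 change -3.33, SE 0.11, edgeR adjusted p = 6.07e-17). Lama5, the α5 chain, went the other way, from 0.607 and 0.936 to 14.4 and 11.6 CPM (4.10, SE 0.27, edgeR adjusted p = 1.69e-11). The abundant matrix proteins Sparc (3043 and 2648 against 552 and 629.9 CPM) and Bgn (4222 and 4114 against 1414 and 1462 CPM) were lower. Fibronectin, Fn1, remained among the most abundant transcripts, at 10481 and 11273 against 12447 and 10484 CPM, with groups that overlap and no call (edgeR adjusted p = 0.451; 0.0217 with library size alone). Matrix proteases and their inhibitors were mixed, with 9 of 28 higher (32.1%) and 10 lower (35.7%), near the 30.0% and 31.2% of all genes. With library size alone these counts were 11 and 9. The stromelysin Mmp3 had no read under KO 0 h and 2.21 and 3.15 CPM under KO 2 h, at least 29.6-fold higher, whereas the membrane protease Adam12 went from 45.3 and 38.8 to 6.66 and 4.34 CPM. All these list medians are the same when genes with no read in a group are set at their bound.

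**Figure D2:**
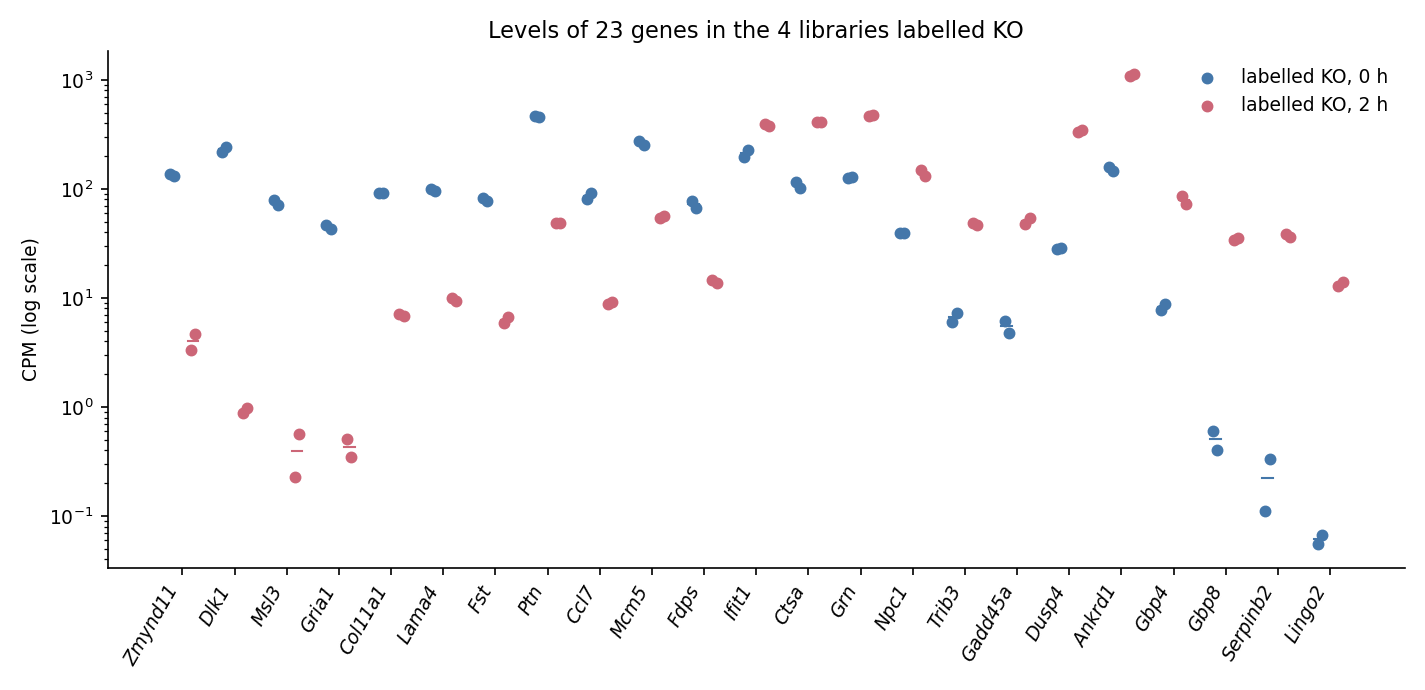
CPM (y, log scale) of 23 genes in the 4 libraries labelled KO; each point is a library, blue for 0 h and red for 2 h, and each short line the mean of 2 libraries. The groups do not overlap for any of these genes, and Zmynd11 falls from 137 and 131 to 3.31 and 4.69 CPM.

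DNA replication and mitosis genes were lower under KO 2 h without exception among those tested: 36 of 36 replication genes (median log2 fold change -1.19) and 37 of 37 mitosis genes (-1.18), of which 24 and 26 were at least 2-fold lower. The E2F factors bind TTTCCCGC or TTTGGCGC in front of many replication genes, and mitosis genes carry the cell cycle homology region (CHR), TTTGAA, and CCAAT boxes. The promoter windows from RefSeq run from 250 bases before to 50 after the annotated start. A gene was counted for a motif if any of its windows held the letters. An E2F site on either strand was found in 9 of 30 replication genes (30.0%) against 1.8% of all 27025 genes with a window. A CHR was found in 21 of 29 mitosis genes (72.4%) against 20.2%, and CCAAT in 25 of 29 (86.2%) against 41.1%. Stretches of 1 promoter of each kind are shown on build GRCm38.p6, in the direction of the gene and ending upstream of its start, with the match in capitals; that of Mcm5, a subunit of the replicative helicase, lies at chr8:75109315-75109412 (plus strand) and holds the site as its reverse complement, and that of Cdc20, the activator of the anaphase-promoting complex, at chr4:118437344-118437406 (minus strand).
Mcm5: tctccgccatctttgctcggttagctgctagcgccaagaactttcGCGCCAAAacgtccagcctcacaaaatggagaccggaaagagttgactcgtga
Cdc20: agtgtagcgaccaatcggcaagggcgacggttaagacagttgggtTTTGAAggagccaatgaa

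Mcm5 stood at 275 and 251 CPM under KO 0 h and at 54.1 and 56.0 CPM under KO 2 h (log2 change -2.26, SE 0.08, edgeR adjusted p = 4.47e-16). Cdc20 stood at 249 and 201 against 81.1 and 82.9 CPM (-1.46, SE 0.09, edgeR adjusted p = 4.95e-12). Pola1, the catalytic subunit of the polymerase that primes synthesis, was at 149 and 143 against 33.7 and 37.5 CPM. Every library labelled KO 0 h was above every library labelled KO 2 h in these genes. Rrm2, the small subunit of ribonucleotide reductase, went from 195 and 200.4 to 50.7 and 55.0 CPM, and the S and M phase cyclin Ccna2 from 231 and 253 to 67.8 and 65.0 CPM. Plk1, a kinase of mitotic entry and spindle assembly, was at 97.4 and 93.0 against 29.6 and 33.7 CPM. G1 regulators were mixed, with 6 of 20 higher and 11 lower (7 and 7 with library size alone). The D-type cyclin Ccnd2 was higher (477 and 456 against 1011 and 1055 CPM, log2 change 1.15, SE 0.07, edgeR adjusted p = 5.44e-12) while its partner Cdk4 stood at 461 and 434 against 442 and 450.5 CPM (edgeR adjusted p = 0.952).

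Cholesterol synthesis genes were lower, 23 of the 23 tested of 26 listed, with 18 at least 2-fold lower (median -1.58; 22 lower with library size alone). Fdps, which makes farnesyl diphosphate, was at 77.7 and 66.8 against 14.7 and 13.7 CPM (log2 change -2.35, SE 0.11, edgeR adjusted p = 2.47e-14). Cyp51, the lanosterol demethylase, was at 524 and 512 against 109 and 113 CPM (-2.22, SE 0.07, edgeR adjusted p = 1.07e-16). The sterol regulatory element TCACNCCAC was in 0 of the 16 of these genes that had a window and in 1.44% of all genes with one. That says only that these letters are not in this window. Genes of fatty acid metabolism split by direction, with 16 of 27 lower and 7 higher. The elongase Elovl6 (146 and 159 against 33.6 and 34.2 CPM) and the sterol exporter Abca1 (7.84 and 7.49 against 1.65 and 1.89 CPM) were lower. The fatty acid transporter Cd36 was higher, from 1.55 and 2.67 to 12.4 and 15.5 CPM (2.74, SE 0.23, edgeR adjusted p = 4.98e-10), as was the triglyceride lipase Pnpla2, from 10.5 and 11.1 to 40.7 and 43.2 CPM. Dgat1, which makes triglyceride, was at 27.3 and 26.7 against 28.0 and 26.5 CPM (edgeR adjusted p = 0.9).

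Lysosome and autophagy genes were higher, 23 of 28 with 13 at least 2-fold, and 4 were lower (median 0.78, or 0.89 after subtracting the median of each gene's chromosome). Their summed level was 4111 and 3981 CPM under KO 0 h and 7673 and 7758 CPM under KO 2 h. Psap, the precursor of the saposins that present sphingolipids to their hydrolases, stood at 823 and 802 against 2101 and 2057 CPM (log2 change 1.35, SE 0.07, edgeR adjusted p = 3.19e-13). Ctsa, the protective protein cathepsin A, stood at 116 and 101 against 411 and 409.7 CPM (1.92, SE 0.08, edgeR adjusted p = 4.28e-15). Npc1, which moves cholesterol out of the lysosome, was at 39.6 and 39.8 against 148 and 130.1 CPM (1.81, SE 0.09, edgeR adjusted p = 2.13e-13). In each of them the labels differed by more than the spread within either group. Progranulin, Grn, went from 126 and 129.5 to 469 and 480.1 CPM, and the autophagy receptor Sqstm1 from 342 and 292 to 677 and 735 CPM. The membrane protein Lamp2 was at 329 and 363 against 298 and 335 CPM, with overlapping groups and no call (edgeR adjusted p = 0.165).

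Stress genes were higher in part. In the integrated stress response, in which phosphorylation of eIF2α lets Atf4 protein be made and Atf4 drives stress genes, 13 of 24 were higher and 4 lower (median 0.31). The Atf4 transcript itself was at 338 and 335 against 300.3 and 297 CPM (log2 change -0.17, SE 0.07, edgeR adjusted p = 0.039), a call lost in 13 of 15 alternatives, each single left-out library among them, with adjusted p up to 0.786. Its targets Trib3, a pseudokinase, and Chac1, which degrades glutathione, were higher: Trib3 went from 6.02 and 7.28 to 48.6 and 46.2 CPM (2.84, SE 0.13, edgeR adjusted p = 4.17e-14) and Chac1 from a mean of 4.81 ± 0.564 to 25.6 ± 2.27 CPM (SD, n = 2 each; 2.41, SE 0.16, edgeR adjusted p = 1.33e-11). Ppp1r15a, the phosphatase subunit that reverses eIF2α phosphorylation, went from 12.0 and 11.6 to 68.2 and 72.9 CPM. Asparagine synthetase, Asns, was at 274 and 259.8 against 251 and 247 CPM with no call (edgeR adjusted p = 0.255), and Psat1, an enzyme of serine synthesis, was lower, at 746 and 669 against 337 and 343 CPM. The C/EBP-ATF element TGATGNAA was found in 6 of the 23 genes of this list with a window (26.1%) against 4.51% of all genes with a window. That of Chac1 lies at chr2:119351004-119351101 (plus strand, GRCm38.p6), with the reverse complement of the element in capitals.
Chac1: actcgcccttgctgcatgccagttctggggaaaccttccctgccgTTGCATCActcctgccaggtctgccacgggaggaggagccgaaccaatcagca

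Chaperones of the endoplasmic reticulum ran lower more often than higher, 11 against 6 of 22 (median -0.17); scaled by library size alone the counts were 8 lower and 10 higher. Pdia6, a disulfide isomerase, was at 632 and 534 against 187 and 210.1 CPM (log2 change -1.56, SE 0.09, edgeR adjusted p = 6.62e-13). Hspa5, the main chaperone of that compartment, stood at 1438 and 1380.1 against 1404 and 1462 CPM with no call (edgeR adjusted p = 0.784). The mitochondrial Hsp70 Hspa9 was higher, at 1228 and 1062 against 2897 and 2998 CPM (1.36, SE 0.08, edgeR adjusted p = 3.15e-12). Of 19 p53 targets 9 were higher (47.4%) and 7 lower (36.8%), against 30.0% and 31.2% of all genes. Gadd45a, a growth arrest gene, went from 6.13 and 4.81 to 47.6 and 54.2 CPM (3.20, SE 0.15, edgeR adjusted p = 3.21e-14), and Mdm2, the ubiquitin ligase of p53, from 203 and 213 to 463 and 439 CPM. Bax was at 127 and 114 against 113 and 130.0 CPM with no call (edgeR adjusted p = 0.918). Nrf2 targets were lower in 13 of 23 cases and higher in 4 (10 and 8 with library size alone). Nqo1, a quinone reductase, was at 75.3 and 69.2 against 23.3 and 21.0 CPM. The median of that list was -0.29, and -0.08 with each chromosome's median subtracted.

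Immediate early genes, switched on within minutes by growth factor and stress signals, were higher in 19 of 25 cases and lower in 2 (median 0.62), and the genes that feed back on MAP kinases in 11 of 16 with 2 lower (median 0.69). Dusp4, a nuclear phosphatase of Erk, was at 28.1 and 28.9 against 331 and 349 CPM (log2 change 3.57, SE 0.09, edgeR adjusted p = 2.25e-18). Dusp16, which acts on Jnk and p38, was at 21.0 and 22.8 against 72.7 and 71.6 CPM (1.72, SE 0.10, edgeR adjusted p = 1.42e-12). Spry1, a Sprouty inhibitor of receptor signalling, was lower, at 5.68 and 4.88 against 2.16 and 1.82 CPM. The list was not uniform. Zfp36, which destabilises AU-rich messages, was at 11.9 and 15.0 against 37.5 and 35.6 CPM (1.45, SE 0.13, edgeR adjusted p = 1.78e-09), while Myc was at 151 and 149 against 156 and 152 CPM (edgeR adjusted p = 0.653) and Fos at 3.48 and 3.74 against 2.48 and 2.73 CPM (edgeR adjusted p = 0.16). The CArG box, bound by serum response factor, was in 3 of the 19 genes of the list with a window (15.8%) against 1.81% of all genes with a window. The cyclic AMP response element TGACGTCA was in 1 of 19 (5.26%) against 2.03%. The CArG box of Zfp36 is in capitals in its stretch at chr7:28379232-28379331 (minus strand, GRCm38.p6).
Zfp36: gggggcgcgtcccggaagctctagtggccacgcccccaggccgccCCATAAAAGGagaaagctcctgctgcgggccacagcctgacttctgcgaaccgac

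Targets of Yap and Tead and components of the Hippo pathway, which senses density and tension, were higher in 12 of 20 cases and lower in 3 (median 0.39). Ctgf and Cyr61, the matricellular targets, were at 660.2 and 679 against 1472 and 1368 CPM and at 444 and 380.3 against 978 and 962 CPM. Lats2, the kinase that restrains Yap, was at 74.1 and 70.8 against 192 and 213 CPM (log2 change 1.48, SE 0.08, edgeR adjusted p = 6.62e-13). The coactivator Wwtr1, a transcript of the pathway itself, was at 199 and 209 against 186 and 191 CPM with no call (edgeR adjusted p = 0.193). Contractile genes were higher in 9 of 22 cases (40.9%) and lower in 5 (22.7%), against 30.0% and 31.2% of all genes. Tagln, an actin-binding protein of smooth muscle and stress fibres, was at 111 and 86.9 against 239.7 and 281 CPM (1.39, SE 0.10, edgeR adjusted p = 5.69e-11), while Myh9, non-muscle myosin, was at 3235 and 2795 against 3239 and 3229 CPM with no call (edgeR adjusted p = 0.276). Myh9 was called higher without library KO 0 h replicate 1 (edgeR adjusted p = 0.016) and with library size alone (edgeR adjusted p = 0.00448).

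**Figure D3:**
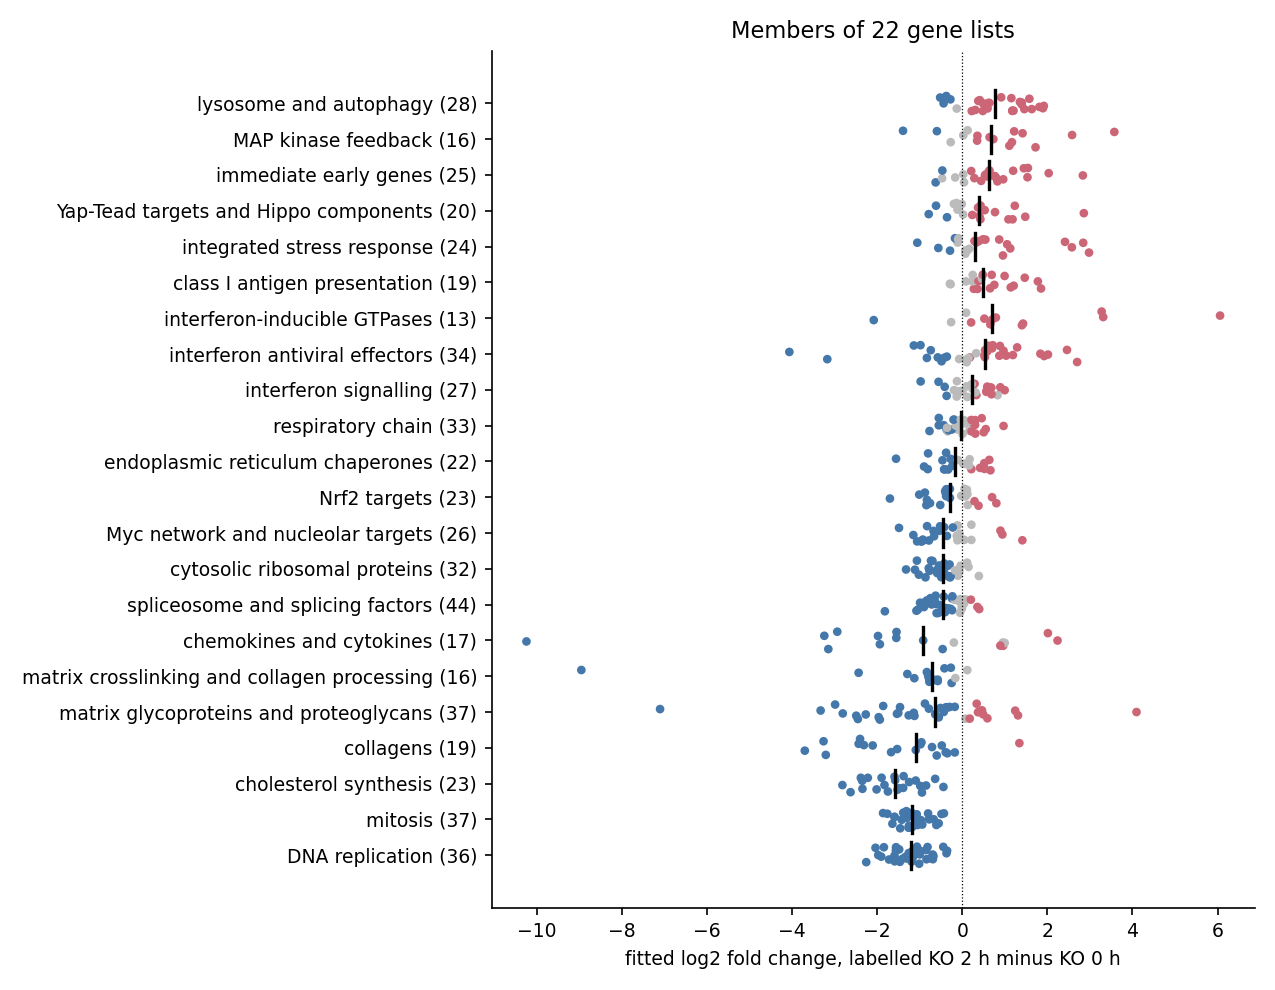
Fitted log2 fold change of KO 2 h minus KO 0 h (x) of each tested member of 22 gene lists (number tested in brackets); red was called higher, blue lower and grey not called, and the black bar is the list's median. The medians run from -1.58 for cholesterol synthesis to 0.78 for lysosome and autophagy, against -0.01 for all genes (dotted line); vertical position within a row has no meaning.

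Secreted signals were lower more often than higher. Among 17 chemokines and cytokines the test called 10 lower and 4 higher (median -0.92, or -0.46 without library KO 0 h replicate 2). Ccl7, a monocyte chemokine, was at 80.0 and 91.4 against 8.87 and 9.25 CPM (log2 change -3.24, SE 0.13, edgeR adjusted p = 1.49e-15), and Cx3cl1, the membrane-bound chemokine fractalkine, at 38.9 and 38.8 against 4.14 and 4.69 CPM. The cytokines Il6 and Il15 were among the genes of this list that were higher. Il6 was at 1.38 and 2.47 against 9.19 and 8.68 CPM (2.24, SE 0.27, edgeR adjusted p = 1.88e-07) and Il15 at 3.04 and 3.34 against 13.9 and 11.7 CPM. Of 24 growth factors and binding proteins 12 were lower and 9 higher (median -0.54, or -0.29 without library KO 0 h replicate 2). The heparin-binding growth factor Ptn was at 469 and 457 against 48.2 and 48.4 CPM (-3.26, SE 0.09, edgeR adjusted p = 2.41e-18). Igf2, an embryonic growth factor, had 5.24 and 3.88 CPM under KO 0 h and no read under KO 2 h, at least 54.8-fold lower. Fst, which traps activins, was at 82.0 and 76.6 against 5.93 and 6.72 CPM (-3.66, SE 0.12, edgeR adjusted p = 1.04e-16). Of the receptors, Pdgfra was at 250.0 and 246 against 71.4 and 70.0 CPM (-1.81, SE 0.08, edgeR adjusted p = 6.89e-15), whereas the insulin-like growth factor receptor Igf1r was at 235 and 239.9 against 223 and 212 CPM with no call (edgeR adjusted p = 0.145).

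Genes of developmental ligand pathways were called in both directions. Of 28 TGF-β and BMP genes 13 were lower (46.4%) and 10 higher (35.7%), against 31.2% and 30.0% of all genes. With library size alone 8 were lower and 11 higher. Ltbp2, a latent TGF-β binding protein of microfibrils, was at 314 and 307 against 39.9 and 46.4 CPM (log2 change -2.85, SE 0.09, edgeR adjusted p = 5.37e-17). Id2 and Id3, inhibitors of helix-loop-helix factors that BMP induces, were lower, Id2 by a log2 change of -2.33 (SE 0.14, edgeR adjusted p = 4.39e-12) and Id3 at 59.8 and 58.3 against 24.8 and 24.2 CPM. The inhibitory Smad7, itself a TGF-β target, was higher, at 61.8 and 59.5 against 157 and 161 CPM (1.39, SE 0.08, edgeR adjusted p = 1.51e-12). Of 15 Wnt pathway genes 9 were lower and 3 higher (median -0.43). The coreceptor Lrp5 was at 90.9 and 81.9 against 36.9 and 37.6 CPM (-1.22, SE 0.09, edgeR adjusted p = 7.75e-11), and the receptor Fzd2 was not called (-0.05, SE 0.09, edgeR adjusted p = 0.665).

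Adhesion and guidance genes were mixed. Of 24 integrins and adhesion molecules 11 were higher (45.8%) and 8 lower (33.3%), against 30.0% and 31.2% of all genes. The mesenchymal cadherin Cdh11 was at 84.5 and 79.2 against 22.4 and 19.8 CPM (log2 change -1.95, SE 0.10, edgeR adjusted p = 3.29e-13), the integrin chain Itgb7 at 12.0 and 13.1 against 33.9 and 38.3 CPM (1.52, SE 0.12, edgeR adjusted p = 3.53e-10), and the common β1 chain Itgb1 at 2396 and 2277 against 2040.2 and 2252 CPM with no call (edgeR adjusted p = 0.176). Of 22 protocadherins and related giant cadherins 10 were higher and 5 lower. Fat3 was at 0.0552 and 0.468 against 13.8 and 9.32 CPM (5.55, SE 0.39, edgeR adjusted p = 3.29e-11), and Pcdh18 was lower, at 134 and 129 against 48.6 and 46.5 CPM. Guidance cues and their receptors were lower in 14 of 32 cases (43.8%) and higher in 9 (28.1%). Slit3, a ligand of Robo receptors, was at 263 and 268 against 48.0 and 43.5 CPM (-2.53, SE 0.09, edgeR adjusted p = 1.09e-16), while Robo2 had no read under KO 0 h and 1.15 and 1.75 CPM under KO 2 h, at least 16.0-fold higher.

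Genes of energy metabolism were called in both directions. Of 33 respiratory chain genes 11 were higher (33.3%) and 8 lower (24.2%), none by 2-fold (median -0.04). These counts were 14 and 4 with library size alone, and 8 and 10 without library KO 0 h replicate 2, so their balance depended on the setting. Of 25 genes of hypoxia and glycolysis 7 were higher (28.0%) and 8 lower (32.0%), near the 30.0% and 31.2% of all genes (median 0.03). With library size alone these counts were 11 and 8. Ldha, which makes lactate, was at 842 and 690.0 against 334 and 400.4 CPM (log2 change -1.06, SE 0.09, edgeR adjusted p = 1.8e-09), and the lactate and pyruvate carrier Slc16a1 at 223 and 210.3 against 88.1 and 95.8 CPM. Hexokinase 2, Hk2, which traps glucose in the cell, was higher, at 132 and 114 against 235 and 254 CPM (0.99, SE 0.08, edgeR adjusted p = 4.71e-10). The muscle pyruvate kinase Pkm was at 1443 and 1152 against 1149.9 and 1299 CPM, with overlapping groups and no call (edgeR adjusted p = 0.434; 0.0177 without library KO 0 h replicate 2). Of 20 aminoacyl-tRNA synthetases 8 were higher (40.0%) and 7 lower (35.0%), or 13 and 6 with library size alone. The largest increases in the list were those of Nars and Lars, at 694 and 607 against 1247 and 1408 CPM and at 317 and 298 against 525 and 537 CPM.

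In each of the 4 interferon lists more genes were higher than lower. Of 27 genes of the signalling pathway 10 were higher (37.0%) and 4 lower (14.8%), against 30.0% and 31.2% of all genes. None changed by 2-fold, and the median was 0.22. With library size alone 16 were higher and 3 lower (median 0.37). The kinase Jak1 was at 336 and 309 against 304 and 287 CPM with no call (edgeR adjusted p = 0.151), and Tyk2 went from 15.5 and 16.0 to 30.8 and 27.6 CPM (log2 change 0.89, SE 0.13, edgeR adjusted p = 2.46e-06). Stat2 and Irf9 of the ISRE complex were higher, Stat2 at 216 and 230.2 against 352 and 312 CPM (0.57, SE 0.08, edgeR adjusted p = 1.27e-06), and Irf9 at 69.4 and 66.5 against 83.7 and 87.4 CPM (0.33, SE 0.10, edgeR adjusted p = 0.00511). Antiviral effectors, the products that act on viral RNA and protein, were higher in 19 of 34 cases and lower in 10 (median 0.53), or in 22 and 9 with library size alone. Ifi44 was lower, at 33.3 and 43.7 against 2.07 and 2.59 CPM (-4.06, SE 0.19, edgeR adjusted p = 4.62e-14). Eif2ak2, the kinase that senses double-stranded RNA, was at 269 and 287 against 285 and 243 CPM, with overlapping groups and no call (edgeR adjusted p = 0.461).

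The ISRE letters GAAANNGAAA were sought on either strand in the genes with a window. They were found in 11 of 23 antiviral effectors (47.8%), 4 of 23 signalling genes (17.4%) and 7 of 7 interferon-inducible GTPases (100.0%). In class I antigen presentation they were found in 5 of 15 genes (33.3%), against 3.99% of all genes with a window. Only 7 of the 13 GTPases tested had a window: Gbp2, Gbp3, Gbp7, Igtp, Irgm1, Irgm2 and Tgtp2. Gbp8, Gbp9 and Gbp4 had none, so the letters were not sought in their promoters. The match of Oas1a, a 2-5 oligoadenylate synthetase that was higher (2.04 and 2.41 against 15.0 and 13.7 CPM), lies at chr5:120907526-120907590 (minus strand) and is a pair of overlapping matches. That of Stat2 lies at chr10:128270248-128270330 (plus strand) as the reverse complement. Both are on GRCm38.p6 with the match in capitals.
Oas1a: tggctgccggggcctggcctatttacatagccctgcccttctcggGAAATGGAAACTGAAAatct
Stat2: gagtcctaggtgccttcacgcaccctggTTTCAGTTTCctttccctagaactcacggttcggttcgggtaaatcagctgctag

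Interferon-inducible GTPases, which coat and break the vacuoles of intracellular pathogens, were higher in 10 of 13 cases and lower in 1 (median 0.70). Gbp8 was at 0.607 and 0.401 against 33.9 and 35.6 CPM (log2 change 6.06, SE 0.23, edgeR adjusted p = 9.43e-16). Gbp4 was at 7.67 and 8.76 against 86.1 and 72.2 CPM (3.28, SE 0.13, edgeR adjusted p = 1.86e-15), and Gbp9 at 15.2 and 17.8 against 167 and 159.6 CPM (3.31, SE 0.11, edgeR adjusted p = 6.07e-17). These 3 genes lie next to each other on chromosome 5, and their relatives did not all move as they did. Gbp2 on chromosome 3 was at 29.5 and 40.7 against 40.3 and 34.0 CPM with no call (edgeR adjusted p = 0.58), and Tgtp2 was lower, at 1.71 and 3.27 against 0.644 and 0.490 CPM (-2.08, SE 0.54, edgeR adjusted p = 0.00217; -1.56 and 0.0522 without library KO 0 h replicate 2). Class I antigen presentation was higher in 13 of 19 cases and lower in none (median 0.48). Nlrc5, the transactivator of class I genes, was at 4.25 and 4.81 against 16.7 and 14.1 CPM (1.78, SE 0.18, edgeR adjusted p = 2.06e-08), and the heavy chain H2-D1 at 82.8 and 89.8 against 175 and 168 CPM. Tap1, a subunit of the peptide transporter, was at 62.7 and 68.8 against 73.0 and 66.2 CPM with no call (edgeR adjusted p = 0.488). Reads that map to several places were left out of the counts, so levels of these and other families of near-identical genes are uncertain.

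The change between the 2 h and 0 h labels was set against the same change among the libraries labelled WT. The difference of the changes was called for 17 genes, 0.133% of those tested, with 10 lower (0.0781%) and 7 higher (0.0547%) among the KO labels, and 1637 genes had an unadjusted p below 0.05. Of the 13 GTPases 5 were among the 17, all with a smaller log2 change among the KO labels. Irgm1, a regulator of the other GTPases on their membranes, was at 376 and 384 against 469 and 409 CPM. Its log2 fold change was 0.21 (SE 0.08, edgeR adjusted p = 0.0231; 0.13 and 0.236 without library KO 2 h replicate 1) and 1.68 among WT labels, a difference of -1.47 (SE 0.12, edgeR adjusted p = 2.39e-07). Irgm2 was at 123 and 138 against 209.5 and 203 CPM and differed by -2.25 (SE 0.28, edgeR adjusted p = 0.000243). Gbp9 differed by -1.69 (SE 0.19, edgeR adjusted p = 6.15e-05) and Gbp4 by -2.01 (SE 0.30, edgeR adjusted p = 0.0024). Their log2 changes started from unlike levels. Gbp9 went from a mean of 16.5 to 163 CPM under the KO labels and from 2.33 to 74.6 CPM under the WT labels. For Gbp4 the means were 8.21 and 79.2 CPM under KO and 0.539 and 21.3 CPM under WT. In CPM both genes rose more under the KO labels. Differences of Irgm1, Irgm2, Gbp9 and Gbp4 passed in 14 of 14 alternative settings. The count of 17 rested on single libraries: it was 91 without KO 0 h replicate 1, 30 without KO 0 h replicate 2, 35 without KO 2 h replicate 2, 9 without WT 0 h replicate 2 and 6 without WT 2 h replicate 1, and DESeq2 called 33. Of 1303 genes called among KO labels and not among WT labels, 2 had a called difference.

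**Figure D4:**
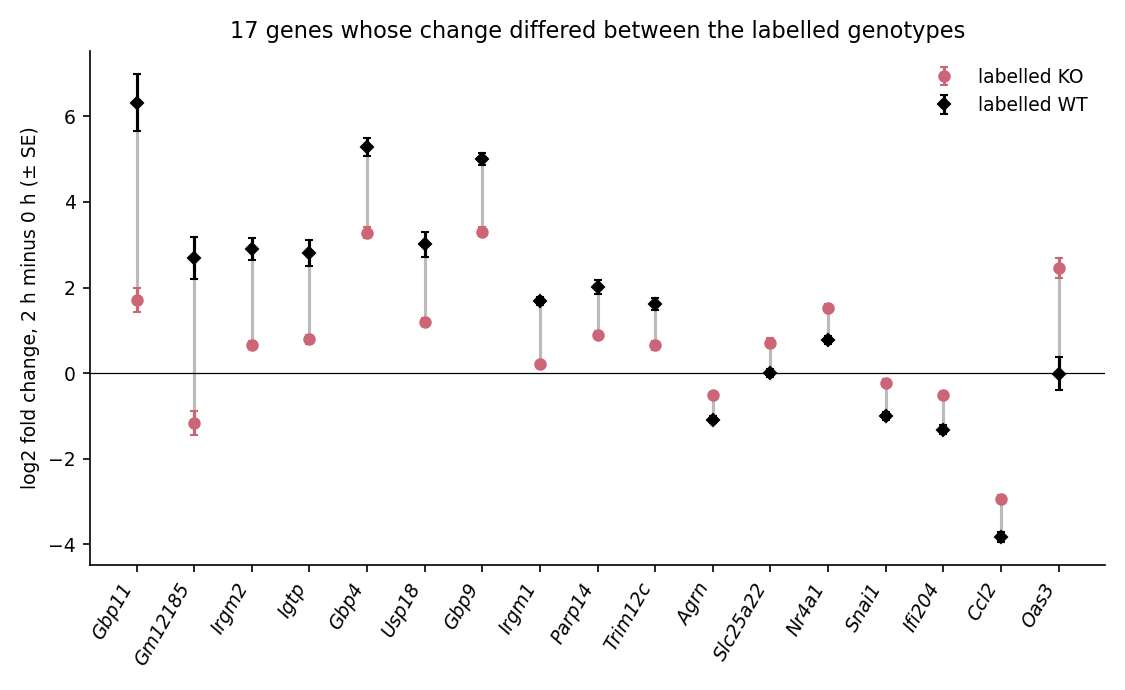
Log2 fold change of 2 h minus 0 h (y, with SE) among the libraries labelled KO (red circles) and WT (black diamonds) for the 17 genes whose difference of changes was called. At the left are 10 genes with the lower value among KO labels, down to a difference of -4.61 for Gbp11, and at the right 7 with the higher value, up to 2.48 for Oas3.

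Splicing, nucleolar and ribosomal protein genes were lower more often than higher. Of 44 spliceosome and splicing factors 32 were lower and 3 higher (median -0.46). Hnrnph1, a splicing repressor and activator, was at 858 and 771 against 402 and 418 CPM (log2 change -0.99, SE 0.08, edgeR adjusted p = 3.65e-10), and the SR protein Srsf2 at 490.4 and 509 against 270.1 and 265 CPM (-0.90, SE 0.07, edgeR adjusted p = 3.07e-10). Core components such as Prpf8, the scaffold of the catalytic centre, stood at 819 and 791 against 815 and 736 CPM with no call (edgeR adjusted p = 0.547). Of 26 Myc network and nucleolar genes 16 were lower and 3 higher (median -0.46; 13 and 6 with library size alone). Ncl, nucleolin, was at 4571 and 3908 against 1981 and 2375 CPM (-0.96, SE 0.10, edgeR adjusted p = 1.57e-07), while Mnt, an antagonist of Myc, was higher, at 25.6 and 27.5 against 71.8 and 69.2 CPM. Cytosolic ribosomal protein genes were lower in 23 of 32 cases and higher in none (median -0.46). Rpl8 was at 1511 and 1316 against 609.8 and 742 CPM (-1.07, SE 0.09, edgeR adjusted p = 1.6e-09) and Rps24 at 509.6 and 423 against 263 and 277 CPM, and counts of this family are uncertain because of its many pseudogenes.

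Chromatin genes related to Zmynd11, the H3.3 chaperones and the enzymes of lysine 36 methylation, were lower in 14 of 32 cases, Zmynd11 among them, and higher in 8. The lysine 36 trimethylase Setd2 was at 159 and 177 against 166 and 151 CPM with no call (edgeR adjusted p = 0.388). The H3.3 chaperone Daxx was higher, at 91.1 and 89.2 against 167 and 169 CPM (log2 change 0.90, SE 0.08, edgeR adjusted p = 1.44e-09), and its partner Atrx lower, at 337 and 366 against 195 and 173 CPM (-0.93, SE 0.08, edgeR adjusted p = 1.86e-09). H3f3a, a gene for histone H3.3 itself, was at 58.9 and 69.8 against 31.3 and 38.2 CPM, and its processed copies make the count uncertain. Hox genes, which mark position along the body axis, were called in 8 of 20 cases, against 61.1% of all genes. They were higher in 7 cases (35.0%) and lower in 1 (5.0%). Among mesenchymal transcription factors 8 of 30 were higher (26.7%) and 12 lower (40.0%), or 11 and 8 with library size alone. Prrx2 was at 51.1 and 45.8 against 13.4 and 15.4 CPM (-1.76, SE 0.11, edgeR adjusted p = 7.89e-12) and Mef2c at 7.29 and 8.35 against 24.2 and 25.6 CPM (1.67, SE 0.15, edgeR adjusted p = 2.25e-09).

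Some genes were read under 1 label and hardly or not at all under the other. With no read in either KO 0 h library and reads in both KO 2 h libraries there were 254 genes, of which 43 passed the filter, and in the reverse direction 306 genes, of which 22 did. Pcdh9, a protocadherin, had 7.58 and 7.42 CPM under KO 2 h alone, at least 82.8-fold higher, the casein gene Csn3 7.22 and 6.23 CPM, at least 74.2-fold, and the sodium-activated potassium channel gene Kcnt2 3.82 and 3.36 CPM, at least 39.6-fold. Lingo2, a neuronal leucine-rich repeat protein, had 1 read in each library labelled KO 0 h and 13.0 and 13.9 CPM under KO 2 h (log2 change 7.64, SE 0.43, edgeR adjusted p = 1.06e-12). In the other direction Chi3l1, a chitinase-like secreted protein, had 8.67 and 4.95 CPM under KO 0 h alone, at least 81.8-fold lower, and the chemokine Cxcl12 8.39 and 8.15 CPM, at least 99.4-fold lower. Subunits of the AMPA glutamate receptor were among them. Gria3 was at 34.7 and 41.0 against 0.0919 and 0.140 CPM (-8.32, SE 0.33, edgeR adjusted p = 3.65e-15) and Gria1 at 46.7 and 43.2 against 0.506 and 0.350 CPM (-6.64, SE 0.21, edgeR adjusted p = 4.92e-17). The amino acid transporter Slc38a4 was lower but still read under KO 2 h, at 15.4 and 19.3 CPM against 168 and 182 CPM under KO 0 h.

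Neighbouring genes shared such changes in 6 places, counting runs of at least 3 tested neighbours with fitted changes of at least 8-fold each in the same direction. On chromosome X the run held Msl3, a subunit of a histone acetylation complex, at 78.4 and 71.5 against 0.230 and 0.560 CPM, Hccs, which attaches haem to cytochrome c, at 44.7 and 47.9 against 0.184 and 0.210 CPM, and the ubiquitin ligase Mid1, at 22.7 and 24.5 against 1.61 and 1.68 CPM. On chromosome 12 it held the imprinted genes Dlk1, at 219 and 243 against 0.873 and 0.981 CPM (log2 change -7.97, SE 0.15, edgeR adjusted p = 1.19e-20), and Rtl1, at 0.938 and 1.47 against 0.0460 and 0.0700 CPM. The other gene of that run, 3110009F21Rik, had no read under KO 2 h and was at least 5.67-fold lower, so a change of 8-fold is not shown for it. A run of serpins on chromosome 1 was higher. Serpinb2, the plasminogen activator inhibitor of type 2, was at 0.110 and 0.334 against 38.2 and 36.0 CPM (7.41, SE 0.26, edgeR adjusted p = 1.55e-16). The others were the Gbp8, Gbp9 and Gbp4 run on chromosome 5, higher, 4 genes from Folh1 to Grm5 on chromosome 7, higher, and Ces1d, Ces1f and Ces1g on chromosome 8, lower.

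Whole chromosomes differed in their median as well. Of 362 genes tested on chromosome 18, 63.8% were higher and 7.46% lower, with a median of 0.60 on the log2 scale that ranged from 0.52 to 0.61 over the 4 pairs of a KO 2 h with a KO 0 h library. On chromosome 15 58.7% of 504 genes were lower (median -0.55, -0.55 to -0.49 over the pairs), and on chromosome X 68.2% of 415 genes (median -0.79, -0.76 to -0.69). The other autosomes lay between -0.30 on chromosome 1 and 0.19 on chromosome 10. Among the libraries labelled WT the same chromosomes had medians of 0.69, -0.62 and -0.67. From chromosome Y, Ddx3y had 3.26 and 2.34 CPM under KO 0 h and no read under KO 2 h, at least 33.6-fold lower, and Eif2s3y was at 0.993 and 1.34 against 0 and 0.0700 CPM. Subtracting each chromosome's median left the medians of cholesterol synthesis (-1.53), DNA replication (-1.26) and mitosis (-1.16) close to their values above. Other lists moved more. Growth factors and binding proteins went from -0.54 to -0.28, the Myc network from -0.46 to -0.32, and TGF-β and BMP genes from -0.24 to -0.12. Protocadherins went from 0.14 to -0.13 and mesenchymal transcription factors from 0.02 to -0.18. The part of such shifts in the change of a single gene was not tested.

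**Figure D5:**
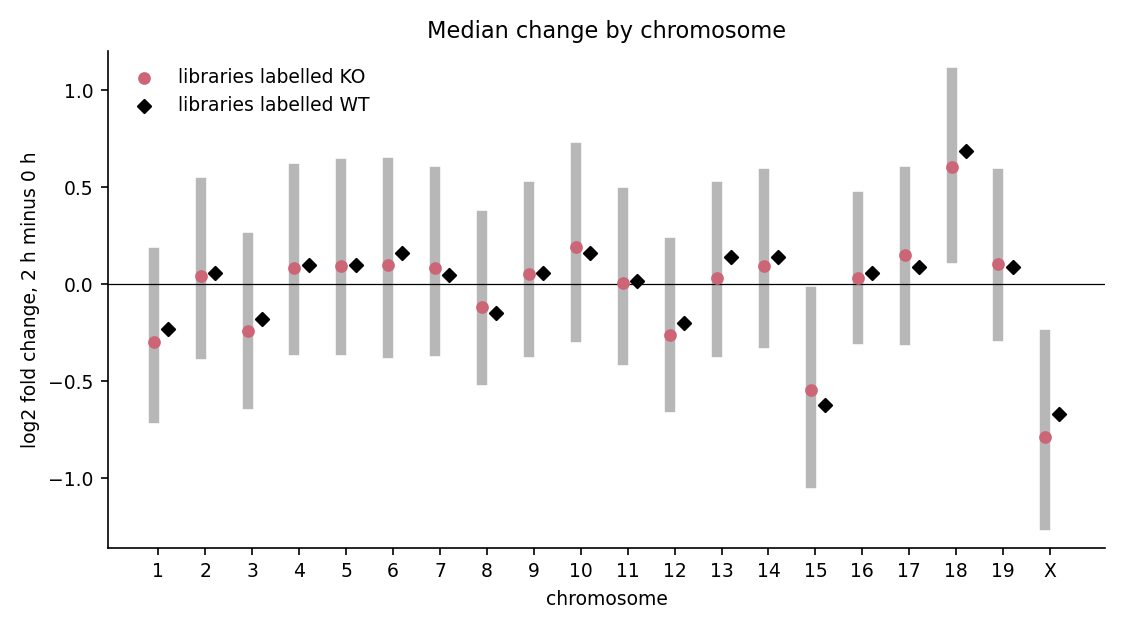
Median log2 fold change of 2 h minus 0 h (y) of the genes tested on each chromosome (x), red circles for libraries labelled KO with the interquartile range over genes as a grey bar, black diamonds for libraries labelled WT. Chromosome 18 is highest at 0.60 and chromosomes 15 and X lowest at -0.55 and -0.79 among the KO labels.

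Markers of the labelled cell type were present under both labels and lower under KO 2 h. Of 10 tested fibroblast markers 7 were lower and 1 higher (median -1.60). The summed level of the 12 listed was 42515 and 41451 CPM under KO 0 h and 20590.2 and 19040.1 CPM under KO 2 h. Most of that fall came from the collagens Col1a2 (mean 10949 against 2071 CPM), Col1a1 (9097 against 949 CPM) and Col3a1 (2045 against 221 CPM). Fn1, another abundant marker of the list, was not called. Vim, the intermediate filament of mesenchymal cells, was at 6777 and 6273 against 3928 and 4211 CPM (log2 change -0.68, SE 0.08, edgeR adjusted p = 6.28e-08), and Pdgfrb at 85.1 and 83.9 against 81.8 and 67.2 CPM with no call (edgeR adjusted p = 0.1; -0.31 and 0.0156 without library KO 2 h replicate 1). In bulk libraries fewer cells of a type and less RNA per cell cannot be told apart. The 10 macrophage markers summed to 56.6 and 82.6 CPM against 58.9 and 96.0 CPM, with none at 0 in any of the 4 libraries and 1 called in each direction. Endothelial markers summed to 3.26 and 5.75 against 16.4 and 14.3 CPM, mostly from Vwf (0.166 and 1.20 against 12.5 and 9.81 CPM), and skeletal muscle markers to 4.58 and 7.28 against 54.8 and 42.2 CPM, mostly from Ttn (1.27 and 3.68 against 39.5 and 26.4 CPM) and Des (1.99 and 1.80 against 13.7 and 13.3 CPM). Of the 9 endothelial and 9 muscle markers, 1 to 3 and 1 to 4 had no read in a given library. Adipocyte markers summed to 76.3 and 87.3 against 120.4 and 134 CPM, nearly all of it lipoprotein lipase, Lpl. Lymphocyte, epithelial, neural, erythroid and stem cell markers summed to at most 9.09 CPM in every library. The part of other cells in the changes was not tested.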

How the data were processed

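RNA from 8 NIH3T3 libraries (4 groups of 2) was sequenced in pairs. The authors deposited raw counts per gene symbol, 1 table per library; per the submitters' processing notes the tools were STAR 2.5.2b, HTSeq and bcl2fastq 2.15, with mm9 as genome build. No source used here gives the annotation or whether strand was used in counting, so overlapping and antisense genes cannot be told apart. The 4 summary lines (36.9 to 43.2% of reads) were left out; 14.1 to 17.0% of reads mapped to several places. Gene reads ranged from 13671013 to 21299120 per library.

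Counts were fitted with edgeR 4.0.16 in R 4.3.3: filterByExpr (minimum count 10, minimum total 15), TMM scaling, and robust quasi-likelihood with 1 coefficient per labelled group over all 8 libraries, which leaves 4 residual degrees of freedom. Standard errors are the fold change divided by the root of F. Calls are at a Benjamini-Hochberg adjusted p below 0.05 over 12807 genes. The comparisons were KO 2 h against KO 0 h, the same among WT labels, and the difference of both changes. Lists of 54 gene groups are described by counts and medians. Genes named are Zmynd11, the 20 largest fold changes and 10 largest CPM differences per direction, up to 6 called and 3 uncalled members of each list, the 5 most read genes per direction with no read in the other group and the 10 largest called differences per direction. Not every gene so picked is described. Another 18 genes, among them Ifit1, Stat2, Irf9, Atf4, Fos, Sqstm1, Mid1, Rtl1, Serpinb2, Eif2s3y and Larp4b, were chosen after their values were seen, as were Dip2c and Mtr, which neighbour Zmynd11, and the genes that close the neighbour runs. The members, lists and rules were chosen with earlier results of these data known. Some names may also be left out because they are not reported here.

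RefSeq tables of GRCm38.p6, not the build of the counts, gave chromosomes and gene order for 12741 genes and the promoter sequences. Medians over pairs of libraries used log2(CPM + 0.5). The stretch shown for a motif had to lie upstream of the start, a condition added after the windows were read. Replicates within a group differed by more than sampling noise (chi-square per degree of freedom 3.04 to 9.64). On simulated counts (12643 genes) 45 of 67 true changes of 1.5-fold, 55 of 67 of 2-fold and 62 of 66 of 4-fold were found, with 11 false calls; so many changes as in the real comparison were not simulated. Alternatives were RLE factors, library size alone, DESeq2 1.42.0, no filter, at least 1 CPM in 2 libraries, the 4 KO libraries alone, a replicate block and leaving out each library.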

Additional observations from a re-analysis of the deposited data

Results flagged for a closer look

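For 17 genes the change between the 2 h and 0 h labels differed between the KO and WT labels by an edgeR test of the difference itself. The value given is the KO change minus the WT change on the log2 scale.

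The guanylate-binding protein Gbp11 differed by -4.61 (SE 0.88, edgeR adjusted p = 0.0225), Gm12185 by -3.85, Irgm2 by -2.25, Igtp by -2.02, Gbp4 by -2.01, Usp18, the protease that removes Isg15 and damps the interferon receptor, by -1.82, Gbp9 by -1.69, Irgm1 by -1.47, Parp14 by -1.13 and Trim12c by -0.96. Agrn, the matrix proteoglycan agrin, differed by 0.58, the mitochondrial glutamate carrier Slc25a22 by 0.72, the nuclear receptor Nr4a1 by 0.76, the repressor Snai1 by 0.77, Ifi204 by 0.81, Ccl2 by 0.89 and Oas3 by 2.48 (SE 0.47, edgeR adjusted p = 0.0216).

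Irgm1, Irgm2, Gbp4 and Gbp9 passed in 14 of 14 alternatives. Each of the 13 others missed the threshold when at least 1 library was left out, and WT 2 h replicate 1 was that library for Gbp11, Gm12185, Usp18, Parp14, Trim12c, Agrn, Slc25a22, Nr4a1, Snai1, Ccl2 and Oas3, with adjusted p from 0.0736 to 0.587. Igtp missed it without WT 0 h replicate 2 (0.152) and without WT 2 h replicate 2 (0.0703), and Ifi204 without WT 2 h replicate 2 (0.0628). Several missed it without other libraries too: Gbp11 without either WT 0 h replicate (0.285 and 0.103), Usp18 without any 1 of the 4 WT libraries (0.0628 to 0.239), and Agrn without any 1 of the 4 WT libraries or KO 2 h replicate 1 (0.0581 to 0.332). Slc25a22 missed it without either WT 0 h replicate or KO 2 h replicate 1 (0.124 to 0.142), Snai1 without WT 0 h replicate 1 or WT 2 h replicate 2, Oas3 without WT 0 h replicate 2 or WT 2 h replicate 2, Parp14 and Trim12c without WT 0 h replicate 2, and Ccl2 without WT 2 h replicate 2. With a replicate block Agrn (0.0553) and Slc25a22 (0.0539) missed it, with library size alone Slc25a22 (0.0603), and with DESeq2 Gbp11 (0.146).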

How the results depend on the processing

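The counts of genes called between KO 2 h and KO 0 h stayed within 1.5 times of the 8-library fit in all 15 alternatives: 6850 to 7684 called without single libraries, 7248 with DESeq2, 7149 from the 4 KO libraries alone and 7870 with library size alone. Under that last setting 6874 of the 7829 genes were called with the same sign, and the median of all genes moved by 0.15. The difference of the KO and WT changes depended more on the setting, with 113 genes called without a filter, 33 with DESeq2, and 6 to 91 without single libraries; the cause was not tested. Deviations of same-numbered libraries correlated between -0.0533 and -0.0053, so no shared effect of the replicate number was seen. Such correlations cannot show whether samples were paired by culture or day. With a replicate block 7580 genes were called between the KO labels and 15 for the difference. Of 464 genes followed by name, 386 kept their call in each alternative, 24 lost it in at least 1, 54 gained 1 and 0 reversed. Of 1620 counts of list members 1562 stayed within 1.5 times. Of 861 list medians, chromosome-centred values included (an alternative chosen after seeing the data), 642 moved by less than 1 SD of the 4 library pairs. Depth limits low genes: 3 reads are 0.138 to 0.210 CPM, and 2 libraries per group leave single fold changes open to any 1 library.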
